A study of Saccharomyces cerevisiae with 30 samples.

Results

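The regions described here are the places where replication forks of wild type budding yeast gave the strongest TrAEL-seq signal in hydroxyurea. TrAEL-seq captures free 3′ ends of DNA, which at a replication fork come mostly from the leading strand, so that a pile of reads marks where forks stood in the population. The deposited table covered the 16 chromosomes with 60303 running windows of 2000 bp, one every 200 bp. For each window the mean of both wild type libraries from the HU block was divided by its mean over all windows, and windows were kept where this ratio was 6 or more and the midpoint lay over 30 kb from both chromosome ends. This gave 2392 windows, 3.97% of all windows, which merged into 162 zones where they overlapped or touched. A further 50 windows reached the ratio but lay within 30 kb of an end. Because the wild type HU block libraries chose the zones, their own levels are given as a description with no test.

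Replication starts at many origins on each yeast chromosome, and 2 forks leave each origin in opposite directions. Hydroxyurea inhibits ribonucleotide reductase and starves forks of nucleotides, so that forks from early origins slow close to where they began. The kinases Mec1 and Rad53 then hold back late origins and keep stalled forks able to resume, and Mrc1 passes the signal from Mec1 to Rad53 while also travelling with the fork. Cdc45 is part of the helicase that unwinds DNA, and Pol1 is the catalytic subunit of polymerase alpha, which lays down the primers of both strands.

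All cells were Saccharomyces cerevisiae synchronised in G1 with alpha factor and released into 200 mM HU. They were sampled at the HU block (0 min) and at 20 and 40 min after HU was removed. The 4 strains were wild type, *pol1-1A*, whose Pol1 carries an alanine at the site that binds Rad53, *mrc1-AQ cdc45-2A* (here the double mutant), and *mrc1-AQ cdc45-2A pol1-1A* (the triple mutant). In *mrc1-AQ* the Mec1 and Tel1 consensus sites of Mrc1 are alanines, and in *cdc45-2A* both Rad53 binding sites of Cdc45 are. Each strain and time had 2 replicates, 24 libraries in all, and every pool of libraries also held a spike-in of asynchronous wild type cells. The 24 libraries had 2974768 to 10460920 mapped reads. In 23 of them 85.0 to 96.6% of reads lay in the windows, but in the library of *pol1-1A* at 0 min, replicate 2, only 70.9% did, and its median window held 18.3 RPM (reads scaled to a fixed library total) against 84.2 in replicate 1. RPM is a share of a library's reads, so fewer cells with a fork in a zone and fewer captured ends per fork cannot be told apart, and a loss in the zones raises the share elsewhere.

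The zones were short and mostly came as twins. They were 2000 to 8200 bp long (median 4800 bp) and covered 770000 bp, 6.93% of the genome away from the chromosome ends. Of the 162 zones, 134 formed 67 pairs whose top windows lay 4600 to 7600 bp apart (median 6000 bp). Both sides of a pair were of like height: the higher exceeded the lower by a median of 1.08-fold and at most 1.47-fold, and the left side was the higher in 33 of 67 pairs. The 28 unpaired zones were lower, with a median top ratio of 7.29 against 9.8 for paired zones, a difference that can also follow from the threshold. For 21 of these 28 no other zone lay 4 to 9 kb away, yet at that distance the ratio still reached a median of 5.4 (range 1.45 to 10.9). The ratios of 10.9 beside DAL4, 8.04 beside NAB6 and 7.18 beside NIP1 passed 6. Those windows were left out only because they lay within 30 kb of a chromosome end.

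Zones lay on every chromosome, at 14.6 per Mb on average, counted without the 30 kb at each end. The density ran from 8.28 per Mb on chromosome XIV (6 zones) to 31.2 per Mb on chromosome III (8 zones). The top windows were protein-coding over a median of 75.7% of their length, against 78.9% for all windows, and 521 annotated genes overlapped a zone. A tRNA gene lay in 6.79% of top windows and in 4.9% of all windows. At the threshold, the window just inside (chromosome X, 610801 to 612800, with JJJ3) had 846 and 857 RPM in the wild type HU block libraries, and the one just outside (chromosome XV, 110201 to 112200, with ZEO1 and INO4) had 822 and 880 RPM. There were 287 windows at ratios of 6 to 6.5 and 339 at 5.5 to 6, so the threshold cuts through a continuous range.

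Either wild type library alone found nearly the same places. Zones chosen on replicate 1 numbered 152, and all 152 reached a ratio of 6 in replicate 2, where their median was 10.2. Zones chosen on replicate 2 numbered 175, of which 149 reached a ratio of 6 in replicate 1, where their median was 8.19.

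The strongest zone lay on chromosome IV at 555801 to 562000, over DET1 and DBF4, which encodes the regulatory subunit of the Cdc7 kinase that fires origins. Its top window held 1918 and 2074 RPM in the wild type HU block libraries, 14.1 times the mean of all windows. It held 571 and 398 RPM at 20 min and 83.0 and 76.6 RPM at 40 min, and the libraries of the latter times did not overlap. Next came the zone over ADK1 and SIR4 (chromosome IV, 914401 to 920000), an adenylate kinase and a silencing factor, with 1768 and 2056 RPM. This zone also reached the histone genes HTA1 and HTB1. The zone over UTP20 and HTA2 (chromosome II, 231601 to 237400) held the other pair of H2A and H2B genes and had 1717 and 2046 RPM. The zone over the hexose transporter gene HXT3 (chromosome IV, 1160401 to 1165400) had 1721 and 2056 RPM, and it reaches the related gene HXT6, where reads of near-identical genes are uncertain. Of the 10 strongest zones 1 was unpaired, that over BDP1 and IDH1 (chromosome XIV, 554201 to 560400), a subunit of TFIIIB and an isocitrate dehydrogenase, with 1743 and 2049 RPM. The other 5 of the 10 lay over NTH2, YDR222W, TRM12, VRL1, and AVL9 with CFT2.

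In asynchronous wild type cells the zones stood out far less, and by how much differed between the replicates. In the spike-ins of the 3 replicate 1 pools the median zone stood at 1.02 times the mean of all windows (range 0.764 to 1.48, 93 of 162 zones above the mean). In those of the 3 replicate 2 pools it stood at 1.5 times (range 0.98 to 2.56, 161 zones above the mean). The zones took 6.06 to 6.68% of window reads in the first set and 8.43 to 9.56% in the second, beside their 6.38% of the whole genome. The highest was HAT1 with CIT3 (chromosome XVI, 554201 to 557800), a histone acetyltransferase and a citrate synthase, at 1.42 and 2.56 times the mean. After it came YIL001W, PDC1 with STU2, AVL9 with CFT2, and SGT2 with SLG1, at means over both sets of 1.59 to 1.86. The lowest were DFP1, PHM7, TPO3, RNQ1 with FUS1, and IOC3, at 0.922 to 1.02. Between single spike-in libraries the order of zones reproduced poorly. The replicates correlated at 0.43, 0.40 and 0.10 (Pearson's r of log2 levels) in the 0, 20 and 40 min pools.

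In the HU block the median zone held 1231 and 1457 RPM in the wild type libraries, 977 and 1260 in *pol1-1A*, 900 and 988 in the double mutant and 1100 and 1046 in the triple mutant. All 4 strains thus gave strong signal at the zones. Wild type, which chose them, stood highest by the mean of its libraries, though *pol1-1A* replicate 2 exceeded wild type replicate 1. The zones took 45.6% ± 5.64 (SD, n = 2) of window reads in wild type, 42.2% ± 13.1 in *pol1-1A*, 32.8% ± 3.03 in the double mutant and 38.0% ± 1.39 in the triple mutant. The wide spread of *pol1-1A* came from its libraries at 32.9 and 51.5%, of which the second exceeded both wild type libraries (41.6 and 49.6%).

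After HU removal the signal drained from the zones in every strain, but later in both strains that carried *mrc1-AQ cdc45-2A*. At 20 min the median zone held 439 and 332 RPM in wild type, 331 and 259 in *pol1-1A*, 568 and 574 in the double mutant and 720 and 589 in the triple mutant. The libraries of both multiple mutants lay above all 4 of the others. At 40 min the values were 103 and 116 RPM in wild type, 80.7 and 97.9 in *pol1-1A*, 120 and 148 in the double mutant and 148 and 142 in the triple mutant. By then 115 and 99 of the 162 zones lay below the mean of all windows in the wild type libraries, 135 and 112 in *pol1-1A*, 137 and 101 in the double mutant and 95 and 96 in the triple mutant.

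**Figure D1:**
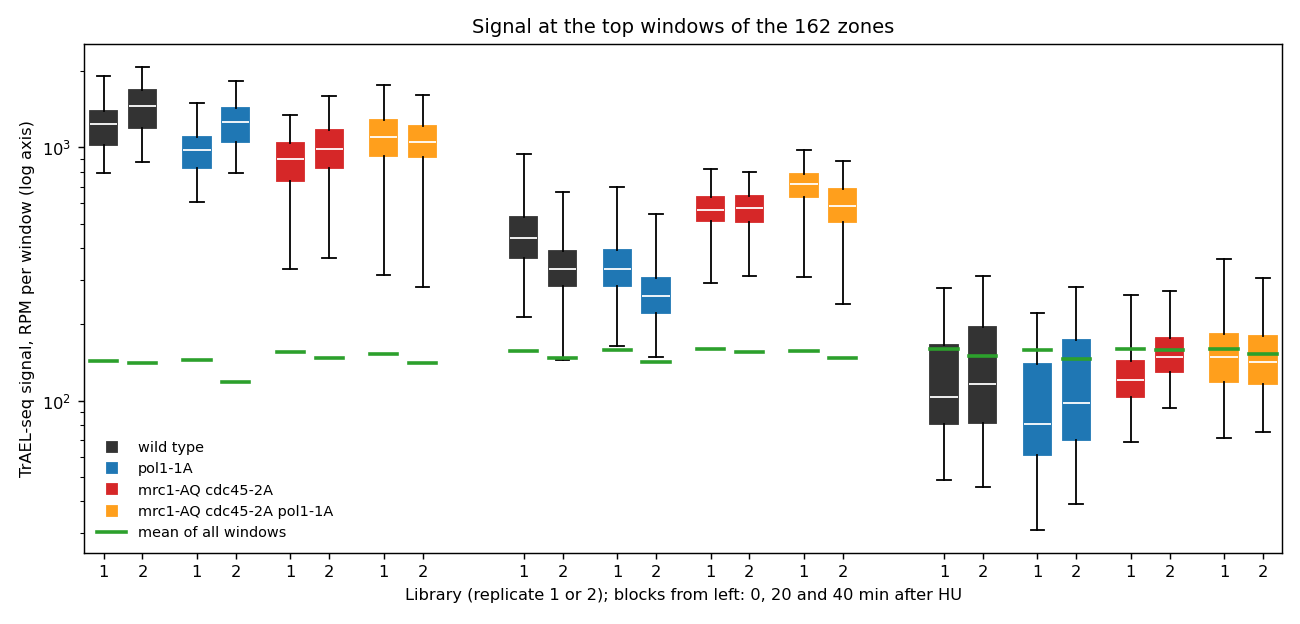
Level of the 162 zones (RPM at the top window of each zone) in each library, by strain and minutes after HU removal, with the 2 replicates side by side on a log axis; boxes span the quartiles, white lines are medians, whiskers run to the lowest and highest zone and green lines mark the mean of all windows. The median zone stood at 259 to 439 RPM at 20 min in the wild type and *pol1-1A* libraries and at 568 to 720 RPM in those of the double and triple mutants.

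As a share of each zone's own level at the HU block, wild type had a median of 28.8% left at 20 min (34.7 and 22.7% in the replicates) and 7.88% at 40 min. *pol1-1A* had 26.7% left at 20 min (33.9 and 20.6%). The double mutant had 59.6% left (63.6 and 57.2%) and the triple mutant 60.0% (63.8 and 53.9%). Single zones in the double mutant ran from 30.1 to 171%, with 11 zones above their HU block level, and in the triple mutant 12 zones were. All were read at the window highest in the wild type HU block, while the double and triple mutants peaked nearer to the pair midpoint. Part of the difference between strains can follow from this choice, which was not tested.

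Changes were tested with limma on log2(RPM + 1) over 58276 windows and read at the top window of each zone, at a Benjamini-Hochberg adjusted p of 0.05. For counts of zones from fits that left out a library, here and below, the share of all windows was not computed. Those counts only describe how a result depends on that library. Between 0 and 20 min all 162 zones fell in *pol1-1A*, where 10.4% of all windows fell and 20.1% rose, with a median log2 change of -1.90 over zones and 0.70 over all windows. Without its replicate 2 at 0 min 160 zones fell. In the double mutant 116 zones fell and 2 rose, where 7.97% of all windows fell and 17.2% rose, with a median of -0.74 over zones and 0.30 over all windows. In the triple mutant 120 zones fell and 2 rose, where 7.96% fell and 22.4% rose, with the same zone median of -0.74 and 0.46 over all windows. edgeR on the recovered reads called 54 zones lower (8.88% of all windows) and none higher (4.03% of all windows) in the double mutant, and without replicate 2 of the double mutant at 0 min limma called 76 lower and 2 higher.

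Between 20 and 40 min most zones fell in every strain, and differences between the strains in this interval were not tested. All 162 zones fell in the double mutant, where 16.5% of all windows fell, with changes of -2.53 to -1.09 and a median of -2.06. In the triple mutant all 162 zones fell too, where 15.9% of all windows did, with a median of -2.14. In wild type 143 zones fell, where 14.9% of all windows fell, with a median of -1.87. *pol1-1A* also had 143 lower zones, where 15.0% of all windows fell, with a median of -1.77. No zone rose in this interval in any of the 4 strains by limma, also at an unadjusted p under 0.05, or by edgeR. Over all windows 31.3% rose in wild type, 22.5% in *pol1-1A*, 17.6% in the double mutant and 29.0% in the triple mutant by limma, and 24.3, 16.7, 20.3 and 23.7% by edgeR.

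The difference between these early losses was tested directly as an interaction, the change from 0 to 20 min in the double mutant minus that in *pol1-1A*. It was positive and past the threshold in 134 zones, where 10.5% of all windows were called positive, and negative in none, where 5.47% of all windows were. Its median was 1.10 on the log2 scale over zones against -0.42 over all windows. The windows read were those highest in the wild type HU block. Across zones the 0 min levels of *pol1-1A* followed wild type more closely (Pearson's r of log2 levels 0.98) than those of the double mutant did (0.74). This choice can raise the loss seen in *pol1-1A* and lower that in the double mutant, and its part was not tested. edgeR called 40 zones, where 9.33% of all windows were. Without *pol1-1A* at 0 min, replicate 2, the count was 104, and without *pol1-1A* at 20 min, replicate 2, it was 86. The zone over HAT1 and CIT3 stood at -0.06 ± 0.20 (SE, limma adjusted p = 0.89), the lowest value of all zones.

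**Figure D2:**
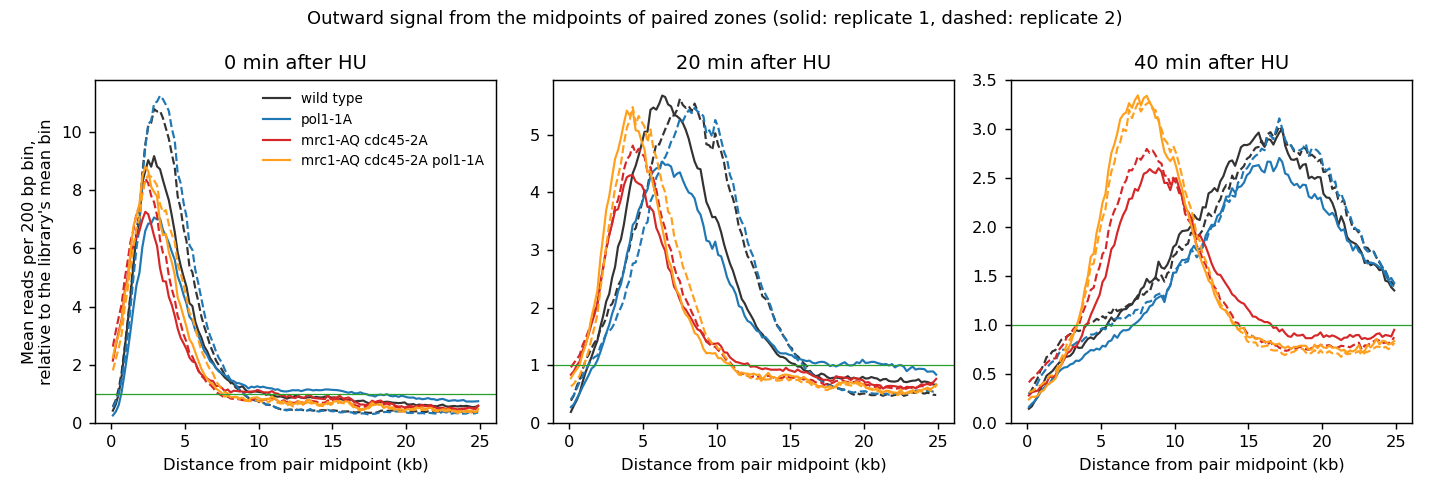
Mean signal outward from the midpoints of zone pairs (x axis, distance in kb; y axis, reads per 200 bp bin relative to the mean bin of the library, green line at the mean) for 91 arms with no other zone within 40 kb, by strain and time, with replicate 1 solid and replicate 2 dashed. Arms were cut at 25 kb. At 40 min the wild type peak stood 17.2 kb out and that of the double mutant 8.5 kb out.

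The signal was followed outward from the midpoint of each pair, along 91 of 134 arms with no other zone within 40 kb. Only the wild type zones counted here, so an arm can hold weaker sites or sites that gave signal only in a mutant. The paper reports more origin firing in HU with *mrc1-AQ*. Reads from such sites were not separated from reads of forks that left the pair, at any time. Arms were cut at 25 kb, so reads farther out were not counted. In the HU block the mean profile peaked at 2.9 kb in both wild type libraries, at 2.9 and 3.3 kb in *pol1-1A*, at 2.3 kb in both double mutant libraries and at 2.3 and 2.5 kb in the triple mutant. The profiles of the multiple mutants therefore peaked nearer to the midpoint than all libraries of the other strains. The innermost 2 kb held 12.8% of the reads of an arm in both wild type libraries, 10.4% ± 0.926 in *pol1-1A*, 22.6% ± 1.34 in the double mutant and 20.0% ± 1.98 in the triple mutant (SD, n = 2).

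By 20 min the peak stood at 6.3 and 7.5 kb in wild type, 6.3 and 8.5 kb in *pol1-1A*, 4.3 kb in both double mutant libraries and 3.9 and 4.3 kb in the triple mutant. By 40 min it stood at 17.3 and 17.1 kb in wild type, 17.1 kb in both *pol1-1A* libraries, 8.9 and 8.1 kb in the double mutant and 7.5 and 8.3 kb in the triple mutant. By their peaks, wild type and *pol1-1A* overlapped at both times after release, as did the double and triple mutants, and these sets of strains did not overlap with each other. Within the 25 kb of an arm, the median read at 40 min lay at 15.5 kb ± 0.141 (SD, n = 2) in wild type and 15.9 kb ± 0.141 in *pol1-1A*. It lay at 10.4 kb ± 0.566 in the double mutant and 9.4 kb in both triple mutant libraries. By this measure the libraries of wild type (15.4 and 15.6 kb) and *pol1-1A* (15.8 and 16.0 kb) did not overlap, nor did those of the double (10.8 and 10.0 kb) and triple mutants. These medians depend on the cut, since the band from 20 to 25 kb still held 21.1% of arm reads in wild type and 22.7% in *pol1-1A*. The band held 13.0% in the double mutant and 10.9% in the triple mutant.

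**Figure D3:**
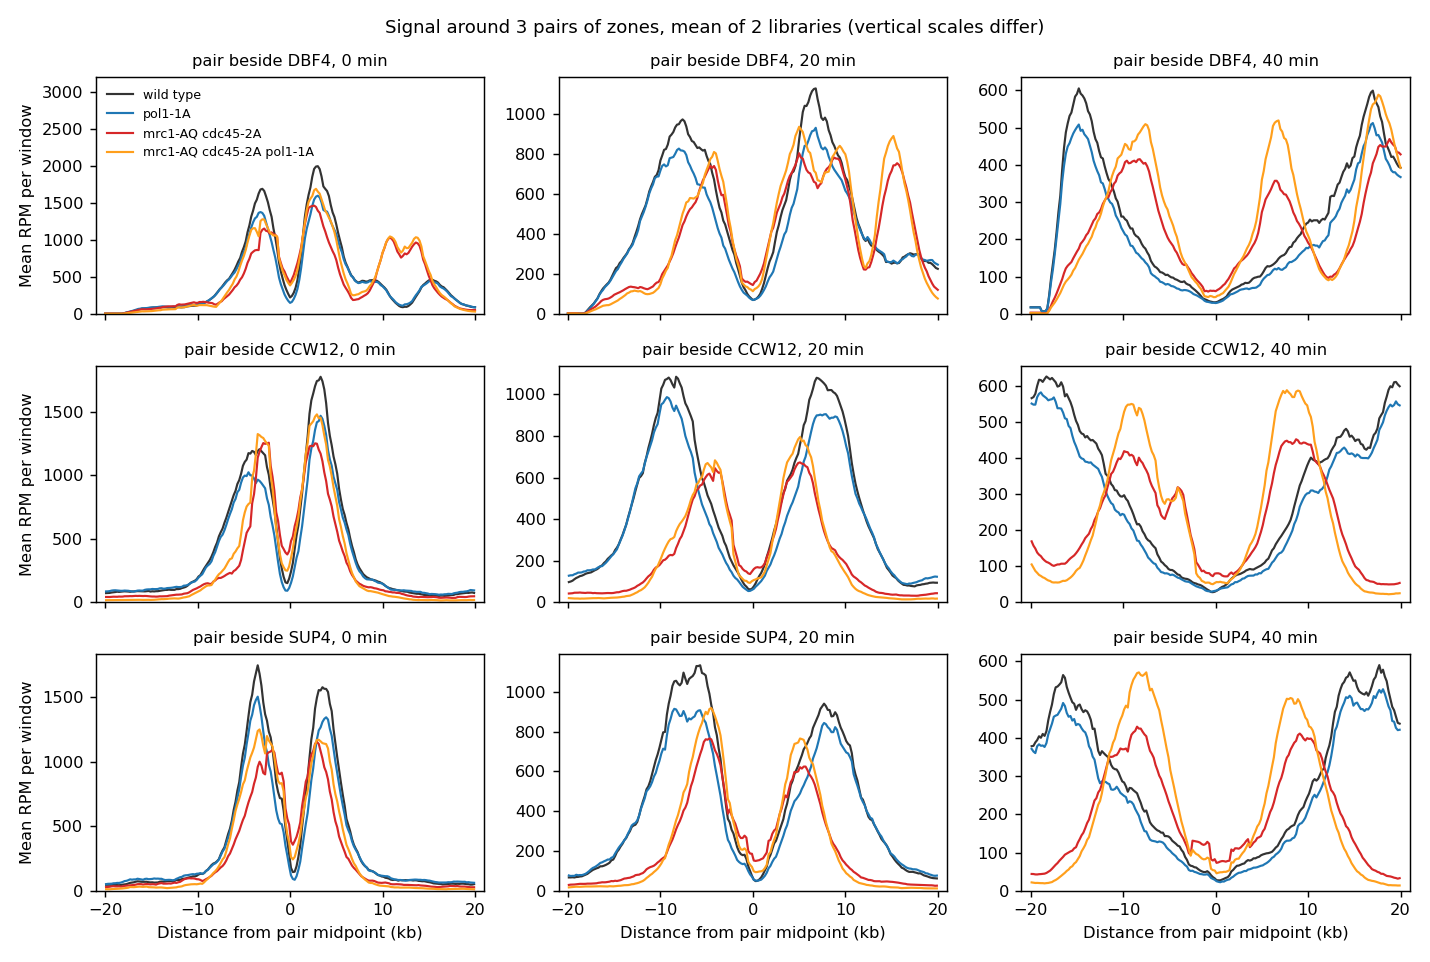
Mean signal of 2 replicates (y axis, RPM) around the pairs beside DBF4, CCW12 and SUP4 (x axis, distance from the pair midpoint in kb) by strain and time, with vertical scales that differ. Beside DBF4 the double and triple mutants had a second pair of peaks 10.8 and 13.6 kb to the right in the HU block.

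The pair beside DBF4 is an example, with further peaks on its right side. Its wild type peaks stood 3.0 kb to either side in the HU block, and at 7.6 kb left and 6.8 kb right at 20 min. At 40 min wild type peaks stood 14.8 kb left, and 10.2 kb (253 RPM) and 17.0 kb (599 RPM) right. A wild type peak already stood 17.0 kb right at 20 min (303 RPM), so the later peak there cannot be assigned to this pair. In the double mutant the nearest peaks at 20 min stood 4.6 kb left and 5.0 kb right (803 RPM). It had others 8.8 kb (781 RPM) and 15.6 kb (753 RPM) to the right at that time. At 40 min its left peaks stood at 9.6 and 8.2 kb. On the right a peak spanned the neighbouring windows at 6.4 and 6.6 kb (357 RPM in each), and another stood at 18.8 kb. To the right of the pair beside DBF4 the double mutant had a further twin peak in the HU block, with 1032 RPM at 10.8 kb and 964 RPM at 13.6 kb, and the triple mutant had 1046 and 1035 RPM there. Wild type peaked near it at 457 RPM (9.0 kb) and 464 RPM (15.2 kb), and *pol1-1A* at 442 and 450 RPM. The twin peak was picked out after its values were seen.

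Read at the window that was highest in the wild type HU block, 2 zones rose from 0 to 20 min in both multiple mutants. The mean profiles of these mutants peaked elsewhere than in wild type. A peak that moved into the window and a gain of signal therefore cannot be told apart. The first lay over VPS27 and ATG3 (chromosome XIV, 637001 to 640400), an endosomal sorting factor and a conjugating enzyme of autophagy. The double mutant held 332 and 366 RPM at 0 min, its lowest zone, then 600 and 592 RPM at 20 min and 200 and 222 RPM at 40 min. The triple mutant held 312 and 281 RPM, then 736 and 675, then 294 and 306. Wild type went the other way, with 891 and 1041 RPM, then 396 and 304, then 166 and 228. The rise was 0.77 ± 0.19 (SE, limma adjusted p = 0.00417) in the double mutant and 1.25 ± 0.19 (4.26e-05) in the triple mutant, while *pol1-1A* fell by 1.51 on the log2 scale. edgeR gave 0.24 (adjusted p = 0.76) and 0.52 (0.489) for both rises. The interaction was 2.28 ± 0.28 (limma adjusted p = 7.35e-06).

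The other lay over BDF2 and CBS1 (chromosome IV, 331801 to 334800), a bromodomain protein and a translational activator of mitochondrial COB. The double mutant held 431 and 481 RPM at 0 min, 675 RPM in both libraries at 20 min, and 205 and 191 RPM at 40 min. Wild type held 855 and 1025 RPM, then 342 and 285, then 253 and 271. *pol1-1A* held 721 and 940 RPM at 0 min. The double mutant libraries thus lay below *pol1-1A* at 0 min, above wild type at 20 min and below wild type at 40 min. The rise was 0.57 ± 0.16 (limma adjusted p = 0.0107) in the double mutant and 0.46 ± 0.16 (0.035) in the triple mutant, and by edgeR the triple mutant stood at -0.27 (adjusted p = 0.725). The interaction was 2.11 ± 0.23 (limma adjusted p = 3.12e-06). Its partner to the left, over BRE1 and AHK1, held 835 and 1003 RPM in the double mutant at 0 min, so that the low level was on one side of the pair.

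At 0 min the double mutant was set against *pol1-1A*, since wild type had chosen the zones. The windows read were still those of wild type, which *pol1-1A* levels followed more closely (Pearson's r of log2 levels 0.98) than double mutant levels did (0.74). By limma 20 zones were lower, where 8.06% of all windows were, and none higher, where 18.8% of all windows were. This count rests on single libraries: it was 5 without *pol1-1A* replicate 2, 50 without *pol1-1A* replicate 1, 6 without double mutant replicate 1 and 13 without double mutant replicate 2. With the pool as replicate block, 40 were lower (11.3% of all windows) and 1 higher (22.7% of all windows), and edgeR called 3 lower (5.96% of all windows). The largest falls were VPS27 with ATG3 at -1.12 ± 0.19 (adjusted p = 0.000101), GRX7 with MNN2 at -0.95 (0.000955) and BDF2 with CBS1 at -0.85 (0.000263). The largest values above 0 were SAT4 with RVS161 at 0.36 (0.109), CCW12 at 0.32 (0.289) and BRE1 with AHK1 at 0.27 (0.268), none past the threshold.

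**Figure D4:**
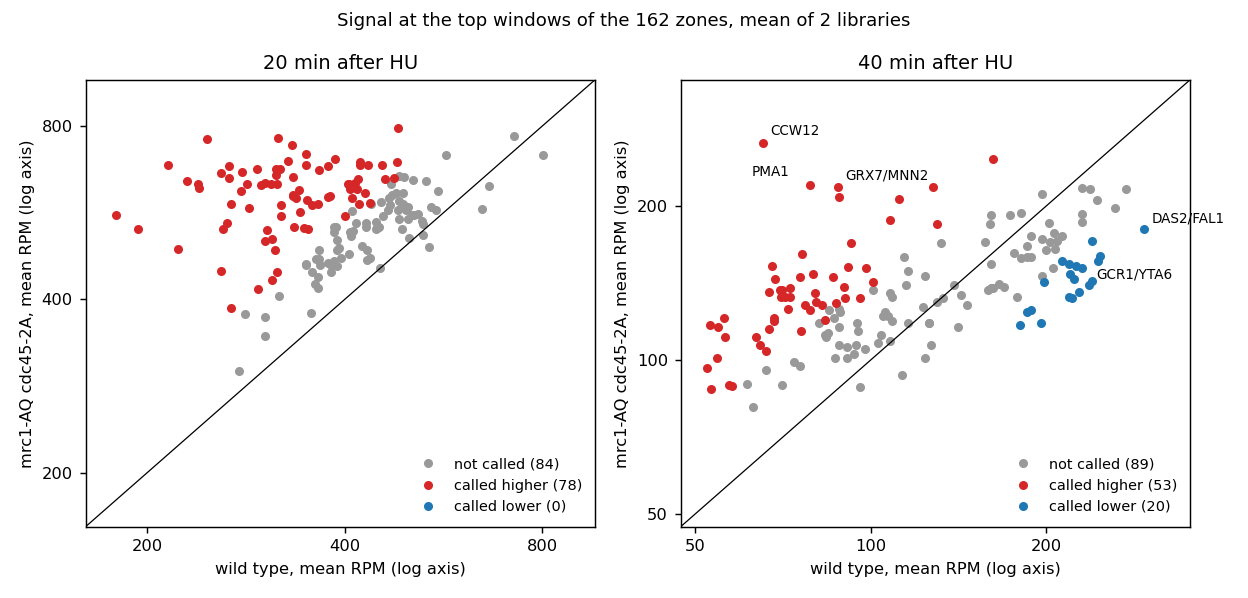
Level of the 162 zones in the double mutant (y axis, mean RPM, n = 2) against wild type (x axis, mean RPM, n = 2) at 20 and 40 min, on log axes, with the diagonal of equal levels and zones called higher in red, lower in blue and not called in grey. At 40 min CCW12 lies farthest above the diagonal, with 78.4 and 52.4 RPM in wild type and 261 and 271 RPM in the double mutant.

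At 20 min, 78 zones were higher in the double mutant than in wild type, where 28.4% of all windows were, and none was lower, where 14.2% were. The median difference was 0.45 on the log2 scale over zones and 0.13 over all windows. Within the pools it was 0.23 in replicate 1 and 0.68 in replicate 2, and edgeR called 11 zones, where 28.9% of all windows were. *pol1-1A* differed from wild type in no zone by limma at 20 min (lowest adjusted p = 0.98), with a median of -0.37, and edgeR called none, also unadjusted. At an unadjusted limma p under 0.05, 74 zones were lower. For counts of zones at an unadjusted p, here and below, the share of all windows was not computed, so they are only a description. Both *pol1-1A* libraries lay below both wild type libraries in 69 zones (42.6%), where 6.48% of all windows did.

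At 40 min, 53 zones (32.7%) were higher in the double mutant than in wild type, where 19.9% of all windows were. In the other direction 20 zones (12.3%) were lower, where 13.0% of all windows were, so lower zones were no more frequent than lower windows. The median difference was 0.23 over zones and 0.24 over all windows, and single zones ran from -0.75 to 2.04. edgeR called 9 higher, where 28.9% of all windows were, and none lower, where 17.1% were, and without double mutant replicate 2 at 40 min limma called 14 higher and 18 lower. Without wild type replicate 2 it called 30 higher and 6 lower.

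The zone with the largest difference between the double mutant and wild type at 40 min was CCW12 (chromosome XII, 366801 to 372600), which encodes a cell wall mannoprotein. Wild type held 1171 and 1242 RPM at 0 min, 378 and 261 at 20 min, and 78.4 and 52.4 at 40 min. The double mutant held 1186 RPM in both libraries, then 566 and 600, then 261 and 271, and the triple mutant ended at 264 and 229. At 40 min the multiple mutants lay above every wild type and *pol1-1A* library, and the double mutant exceeded wild type by 2.04 ± 0.19 (SE, limma adjusted p = 1.73e-06). Along the pair beside CCW12 a peak of 319 RPM was still present 4.1 kb to the left of the midpoint in the double mutant at 40 min, and one of 318 RPM in the triple mutant, in addition to peaks farther out.

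Next was PMA1 (chromosome VII, 477801 to 484600), the proton pump of the plasma membrane, with 83.3 and 73.9 RPM in wild type and 185 and 254 RPM in the double mutant at 40 min (1.46 ± 0.20, adjusted p = 4.16e-05). GRX7 with MNN2 (chromosome II, 265601 to 268800), a glutaredoxin and a mannosyltransferase, held 99.9 and 75.7 RPM in wild type and 205 and 232 RPM in the double mutant (1.32 ± 0.21, 0.000174). Libraries of the strains did not overlap at either zone. PDC1 with STU2 (chromosome XII, 232401 to 238200), pyruvate decarboxylase and a microtubule polymerase, held 82.7 and 94.1 RPM against 213 and 203 RPM (1.23 ± 0.18, 9.66e-05).

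Other zones ended lower in the double mutant, at a share (12.3%) no higher than that of all windows (13.0%). GCR1 with YTA6 (chromosome XVI, 413201 to 416600), an activator of glycolytic genes and an ATPase, held 208 and 266 RPM in wild type and 126 and 154 RPM in the double mutant at 40 min (-0.75 ± 0.15, limma adjusted p = 0.00115). MMM1 (chromosome XII, 134801 to 139400), part of the tether between endoplasmic reticulum and mitochondria, held 212 and 245 against 119 and 152 RPM (-0.75 ± 0.16, 0.00281). SAT4 with RVS161 (chromosome III, 127601 to 131200), a kinase and an amphiphysin-like protein, held 197 and 245 against 120 and 143 RPM (-0.74 ± 0.16, 0.00236). The libraries did not overlap in these 3 zones, and edgeR gave adjusted p-values of 0.283, 0.292 and 0.283.

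A few zones in wild type held more signal at 40 min than the rest. The highest was DAS2 with FAL1 (chromosome IV, 485401 to 487600), where FAL1 encodes an RNA helicase, with 823 and 925 RPM at 0 min, 266 and 228 at 20 min and 277 and 311 at 40 min. Its change from 20 to 40 min was 0.25 (limma adjusted p = 0.198). YPL071C with MUK1 held 254 and 294 RPM at 40 min, BDF2 with CBS1 253 and 271, CKI1 214 and 279, and AEP3 with LSP1 256 and 234.

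As a description, since the same libraries chose the zones, the zones were split into 3 classes of 54 by wild type HU level. The median relative level at 40 min in wild type was 0.531, 0.653 and 1.3 from the strongest class to the weakest, against 0.808, 0.764 and 0.983 in the double mutant. Unpaired zones stood at 1.29 and paired zones at 0.656 in wild type at 40 min. Zones farther than 80 kb from the next zone outside their pair stood at 0.921, and those within 20 kb at 0.62.

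Whether adding *pol1-1A* to the double mutant changed the zones depended on the fit. At 0 min the triple mutant exceeded the double mutant by a median of 0.22 over zones, against -0.65 over all windows. limma called none (13 higher at an unadjusted p under 0.05, lowest adjusted p = 0.346), edgeR called none (9 unadjusted), and the fit with the pool as replicate block called 6 higher, where 1.4% of all windows were. A limma fit of only these groups called 79 zones higher, where 3.52% of all windows were. Both triple mutant libraries lay above both double mutant libraries in 115 zones (71.0%), where 10.8% of all windows did. In 1 zone they lay below, where 62.3% of all windows did. Within the pools the median was 0.33 in replicate 1, with 161 zones above 0, and 0.10 in replicate 2, with 119 zones above 0.

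The same held in part after release. At 20 min the triple mutant lay above in 89 zones (54.9%, where 12.2% of all windows did) and below in none (63.5% of all windows), with medians of 0.32 and 0.05 in the pools, and limma called none (5 higher unadjusted), nor did edgeR (none unadjusted). The fit of only these groups called 27 higher at 20 min, where 2.7% of all windows were. At 40 min it lay above in 52 zones (32.1%, where 18.5% of all windows did) and below in 3 (49.5% of all windows), with pool medians of 0.28 and -0.07 that differed in sign. limma called none at 40 min (11 higher and 1 lower unadjusted), nor did edgeR (none unadjusted), and the fit of only these groups called 4 higher. The share of all windows was not computed for the unadjusted counts or for that fit at 40 min, so these counts are only a description. The largest differences at 0 min were SAM1 with SWI6 (0.62, adjusted p = 0.346), a methionine pathway enzyme and a cofactor of G1/S transcription, GRX7 with MNN2 (0.61) and PSD1 with SKO1 (0.49). VPS27 with ATG3 (-0.23), UTP23 with DNL4 (-0.05) and HAT1 with CIT3 (-0.03) were lowest. At 40 min GRX7 with MNN2 stood at 0.55 (0.586), VPS27 with ATG3 at 0.51 (0.596) and SAM1 with SWI6 at 0.50 (0.506), and PMA1 stood at -0.42 (0.763), MIM1 with LAG2 at -0.28 and BUL1 with DSK2 at -0.25.

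*pol1-1A* alone differed from wild type in no zone at 40 min by limma (23 lower unadjusted) or edgeR (none unadjusted), with a median of -0.26 over zones and 0.05 over all windows. Its libraries lay below both wild type libraries in 88 zones (54.3%), where 15.1% of all windows did. The comparisons of strains share libraries: those with wild type at one time share its 2 libraries, and the double mutant stands in both of its own comparisons.

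The pattern of levels across the zones was close between wild type and *pol1-1A*, with Pearson's r of log2 levels of 0.98, 0.93 and 0.99 at 0, 20 and 40 min (162 zones of the same libraries, as a description). It was 0.93, 0.95 and 0.94 between the double and triple mutants. Between wild type and the double mutant it was 0.74, 0.16 and 0.56. Replicates of a group correlated at 0.78 to 0.97.

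On chromosome X, 2 neighbouring pairs give the course of ordinary strong zones. The zone over KCH1 (534001 to 539600) held 1502 and 1992 RPM in wild type at 0 min, 748 and 578 at 20 min and 104 and 98.2 at 40 min. Its partner over SUP4, a tyrosine tRNA gene, and CDC8, the thymidylate kinase, held 1343 and 1811 RPM, then 465 and 347, then 75.0 and 85.5. The double mutant held 997 and 1056 RPM at the SUP4 zone, then 463 and 495, then 117 and 152, and exceeded wild type there at 40 min by 0.73 (limma adjusted p = 0.0112). The pair over SFC1 (607001 to 612800) and YUH1 (613201 to 619200) held 77.9 and 89.7 RPM, and 87.0 and 95.2 RPM, in wild type at 40 min. The double mutant held 97.4 and 125 RPM, and 91.4 and 120 RPM, there at that time.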

How the data were processed

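TrAEL-seq was measured in 24 libraries of 4 strains at 3 times with 2 biological replicates each, and in 6 spike-in libraries, which were not used for scaling. The authors trimmed the reads (Trim Galore 0.6.5), mapped them (Bowtie2 2.4.1) to build R64, as the submitters' processing notes name them, removed duplicates, kept only the first base of every read, left out multi-copy regions and counted both strands in SeqMonk. The deposited signal is RPM, the reads of a window as a share of all mapped reads scaled to a fixed total. Whole reads were recovered from it for 100% of values within 0.01, and the median library window held 102 to 1212 reads. Gene names came from the RefSeq table of R64. limma 3.58.1 in R 4.3.3 fitted log2(RPM + 1) with a trend for 12 groups, over windows with a mean of at least 5 RPM, so fold changes of low windows are understated. Benjamini-Hochberg adjustment ran over all 58276 windows tested for each of 16 comparisons. A zone was read at the window with the highest wild type HU block mean. edgeR 4.0.16 (quasi-likelihood test) on the recovered reads was an alternative. It called 16829 windows higher and 9953 lower in the double mutant against wild type at 40 min, where limma called 11602 and 7564. Scripts were tested on simulated data.

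Replicate numbers pair the strains at one time, since the labels put same-numbered libraries in one pool. Deviations of same-numbered libraries correlated at -0.01 to 0.79 over the pairs of groups. Zones and lists were chosen with earlier results of these data known. The named zones are the 10 highest in the wild type HU block, the extremes of the spike-in ratio and of wild type at 40 min, the 3 largest changes in each direction of 4 strain comparisons, zones called where a direction had 5 or fewer, the windows at the threshold and 4 zones on chromosome X. PDC1 with STU2 is among them for its spike-in ratio. Other scalings, filters, zone rules, the replicate block and the removal of each library were tried. No origin annotation or genome sequence was used here.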

Additional observations from a re-analysis of the deposited data

Results flagged for a closer look

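The early change differed between strains. The change from 0 to 20 min in the double mutant minus that in *pol1-1A* was past the threshold in 134 zones by limma. It was 2.28 on the log2 scale at the zone over VPS27 and ATG3 and 2.11 at the zone over BDF2 and CBS1. The zones were read at windows chosen in the wild type HU block, and the part of this choice was not tested. *pol1-1A* at 0 min, replicate 2, which had the lowest share of its reads in the windows among the 24 libraries, is part of this comparison, and its part in the result was measured by leaving it out, with 104 zones called. Groups of 2 libraries are too small to look for a library that stands apart zone by zone.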

How the results depend on the processing

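Of 208 alternative counts of zones that kept all libraries, 186 stayed within 1.5 times the reported count. These include counts that were 0 and stayed 0, in the triple against the double mutant and in *pol1-1A* against wild type. The double mutant against *pol1-1A* at 0 min moved under the most settings, from 20 zones to 43 when scaled to reads inside the windows, 7 with quantile normalization, 41 with the pool as replicate block, 3 by edgeR, 31 in a fit of only the groups compared, 13 for the mean over a zone, 11 at a ratio of 8, and 13 or 31 for zones chosen on wild type replicate 1 or 2. The double mutant from 0 to 20 min (118 zones) moved to 46 with quantile normalization and 54 by edgeR, and the triple mutant (122) to 48 with quantile normalization. The double mutant against wild type moved to 11 by edgeR and 35 at a ratio of 8 at 20 min (78), and to 9 by edgeR at 40 min (73). The interaction (134) moved to 40 by edgeR and 89 at a ratio of 8. The triple against the double mutant, with no call, moved to 6 with the replicate block at 0 min, to 4 with quantile normalization at 40 min, and to 79, 27 and 4 at 0, 20 and 40 min when only those groups were fitted. The replicate block moved no other count by over 1.5 times. The causes were not tested.

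Leaving out each library in turn gave 160 to 162 zones for *pol1-1A*, 78 to 104 for the double and 82 to 118 for the triple mutant from 0 to 20 min. From 20 to 40 min it gave 132 to 146 in wild type, 128 to 145 in *pol1-1A* and 162 in both multiple mutants. The double mutant gave 5 to 50 against *pol1-1A* at 0 min, 53 to 109 against wild type at 20 min and 32 to 62 at 40 min, where 32 (14 higher, 18 lower) turned the majority. The interaction gave 86 to 159, and the triple mutant against the double, and *pol1-1A* against wild type, 0 throughout. A group left with 1 library was assumed to vary like the others. The rise of the BDF2 zone in the triple mutant turned to -0.27 by edgeR. From 0 to 20 min in *pol1-1A* the median of all windows was 0.70, 0.51 when scaled to reads inside the windows, 0.02 with quantile normalization and -0.17 by edgeR, and the zones stood at -1.90, -2.10, -1.47 and -3.14. Higher windows made up 65.9% of the calls there, 51.9% with quantile normalization and 34.5% by edgeR. For the double and triple mutants in that interval the share was 68.4 and 73.8%, and 31.2 and 33.2% by edgeR. The zone median kept its sign under every scaling in all 16 comparisons.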
